A study of Mus musculus with 2 samples.

Results

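The strongest distal DNase I hypersensitive sites of the embryonic mouse hindbrain were chosen by their peak height in both libraries of the series. Peaks of the 2 lists were merged wherever they overlapped by 1 bp or more, and a site was kept if its height was at least 80 in replicate 1 and at least 100 in replicate 2 and if it lay more than 1 kb from every protein-coding start. The starts came from the basic set of the GENCODE M21 annotation of mm10. This gave 4893 sites, of 231068 merged sites in all, 97657 sites with a peak in both libraries (shared sites) and 71356 shared sites over 1 kb from a start (distal shared sites). The share of distal shared sites past both limits was 6.86%, and the share of the 26301 shared sites near a start (promoter sites) was 42.3%. The strongest distal sites are compared below with the 66463 other distal shared sites. As the heights selected the sites, heights and hotspots of the same libraries are given as a description, and location, annotation and sequence are the measurements that the rule did not use beyond the distance to a coding start.

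DNase-seq cuts the DNA of intact nuclei with the nuclease DNase I and sequences the cut ends, so that peaks mark DNA open to the enzyme. The study measured hindbrain of healthy B6NCrl mouse embryos of 11.5 days, male and female pooled, in 2 biological replicates of 1 group, with no other condition. Both replicates carry the same donor label. By its title the series has since been replaced by another, not analysed here. A tissue holds several cell types, and more open cells and more open DNA per cell cannot be told apart in these data. Of the hindbrain marker genes 7 of 9 had a shared site at a start (among them Egr2, Atoh1, Ptf1a, Gbx2 and Lmx1a, but not Hoxa2 or Hoxb2), as did 3 of 3 progenitor genes and 3 of 3 neuron genes. The same held for 3 of 4 forebrain, 3 of 3 mesenchyme, 2 of 3 endothelial, 1 of 3 erythroid and 0 of 2 myeloid marker genes, so open starts were not confined to the labelled region. The share of all protein-coding genes with such a site was not counted, so these counts have no background beside them.

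Strong open sites away from coding starts are known to be of several kinds. Enhancers bind tissue-specific transcription factors and act on genes at a distance. CTCF, a zinc finger protein that binds a long motif and holds cohesin at the bases of chromatin loops, keeps a sharp open site in most cell types. Starts of noncoding transcripts, unlisted starts of coding genes and tRNA genes, which RNA polymerase III transcribes, are open as well.

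The central 150 bp of 3 of the highest sites show what such sites look like. They are the highest sites that overlap no exon and lie over 1 kb from all coding starts of GENCODE and RefSeq, and they are shown because all 3 are CpG-rich and the Tex44 and Ptma sites hold motifs known from promoters. Sequences were read from the RefSeq copy of GRCm38.p6 (mm10), 5′ to 3′, with matches to the searched motifs on either strand in capitals. The site near Trappc9, a gene of a vesicle trafficking complex, held no match. The site near Tex44, a testis-expressed gene, held the CRE motif TGACGTCA, an RFX motif (GTTGCCNNGGNAAC) and 2 CAGCTG E-boxes. The site near Ptma, which encodes prothymosin alpha, held 2 NRF1 motifs (GCGCNTGCGC).
chr15:73067606-73067755, + strand, near Trappc9: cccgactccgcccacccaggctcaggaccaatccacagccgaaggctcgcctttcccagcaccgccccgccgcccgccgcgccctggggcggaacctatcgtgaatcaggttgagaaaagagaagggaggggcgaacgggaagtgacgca
chr1:86434526-86434675, + strand, near Tex44: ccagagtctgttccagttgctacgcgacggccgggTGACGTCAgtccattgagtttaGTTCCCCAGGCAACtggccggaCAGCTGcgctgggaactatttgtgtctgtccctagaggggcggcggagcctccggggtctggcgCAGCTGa
chr1:86487536-86487685, + strand, near Ptma: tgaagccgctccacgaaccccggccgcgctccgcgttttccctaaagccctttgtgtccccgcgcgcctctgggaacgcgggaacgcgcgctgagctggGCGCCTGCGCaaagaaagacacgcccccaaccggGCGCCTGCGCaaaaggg

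CTCF motifs are shown for the 5 highest sites of the same kind that hold the core CCANNAGNNGGC, on the strand of the motif. Capitals mark the core. A site near Sox12 (109 and 139 in replicates 1 and 2) ranks among them but lies in an exon and is not shown. Heights in replicates 1 and 2 were 120 and 141 near Rassf7, 119 and 140 near Ccne1, a cell cycle gene, 109 and 139 near Nfib, a factor of brain development, 116 and 134 near Chd2, a chromatin remodeller gene, and 118 and 132 near Stard10.
chr7:141221917-141221976, - strand, near Rassf7 and Mir210: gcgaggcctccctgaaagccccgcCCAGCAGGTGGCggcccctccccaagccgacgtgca
chr7:38085009-38085068, + strand, near Ccne1: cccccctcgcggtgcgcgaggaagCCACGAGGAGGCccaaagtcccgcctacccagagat
chr4:82513289-82513348, + strand, near Nfib: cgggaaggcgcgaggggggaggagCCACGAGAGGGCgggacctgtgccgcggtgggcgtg
chr7:73618491-73618550, - strand, near Chd2: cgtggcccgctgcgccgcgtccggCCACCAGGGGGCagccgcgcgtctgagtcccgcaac
chr7:101310766-101310825, + strand, near Stard10: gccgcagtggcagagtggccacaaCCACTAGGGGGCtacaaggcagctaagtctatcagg

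Heights in the strongest distal sites had a median of 91 in replicate 1 (80 to 132) and 113 in replicate 2 (100 to 147), against 40 (2 to 113) and 62 (1 to 138) in the other distal shared sites. The height was greater in replicate 2 at 4862 of the 4893 sites, equal at 4 and lower at 27. The higher limit for replicate 2 favours this order, but the medians of the other distal shared sites show it too. As the depth and scaling of the 2 libraries are not known, the order does not compare openness. Each library gave a single peak at 4783 sites, and the highest peaks of both libraries lay 20 bp or less apart at 76.8% of the strongest sites and at 61.5% of the others. Within the strongest sites Spearman's rho of the heights was 0.587, across sites of the same 2 libraries. With the limit of replicate 1 as the only one, 6875 distal sites passed, and with that of replicate 2 as the only one, 8567. These counts include merged sites with a peak in only that library. Without the limit of replicate 1 the number is thus over 1.5 times the 4893 that passed both. Among the distal shared sites, 1861 passed only the limit of replicate 1 and 3324 only that of replicate 2. Just inside the limits, with each height at its limit or 1 above it, lay 71 sites, among them sites near Slc1a6 and Dicer1 with 80 and 100. Just outside, with each height 1 or 2 below its limit, lay 79 sites, among them 1 near Sox2 and 1 near Lmx1b with 79 and 99.

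**Figure D1:**
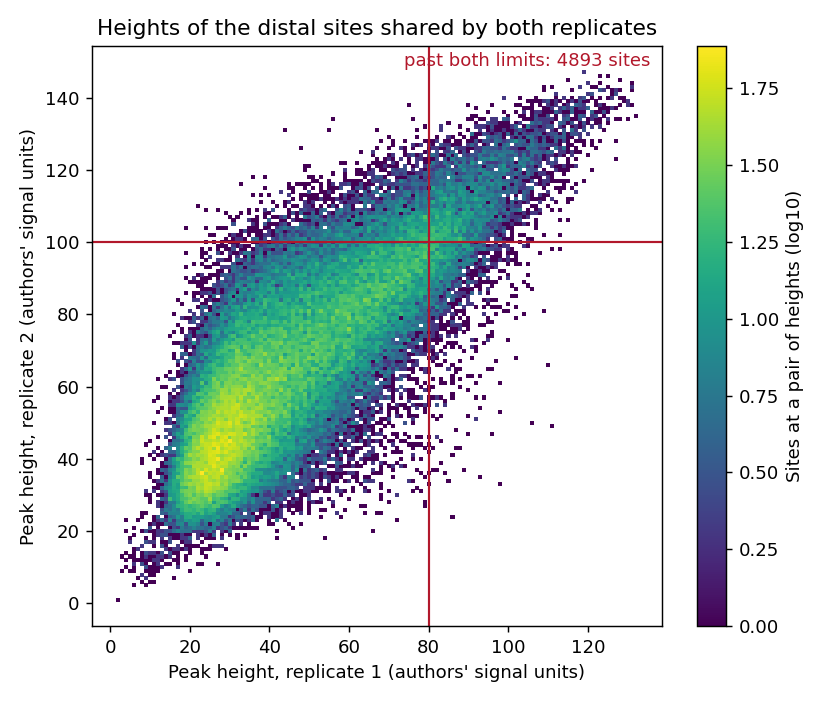
Heights in replicate 1 (x axis) and replicate 2 (y axis) of the 71356 distal shared sites, in the authors' signal units. Colour gives the number of sites at each pair of heights on a log10 scale, and red lines mark the limits of 80 and 100, past which lie 4893 sites.

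The strongest distal sites lay in broader hotspots, the regions of raised cutting that the authors called. The hotspot at the site had a median width of 622 bp in replicate 1 and 1083 bp in replicate 2, against 270 bp and 390 bp for the other distal shared sites. Hotspots at the highest deposited value of 100 held 99.7% and 99.9% of the strongest sites in the 2 libraries, against 44.5% and 59.5% of the others. These values come from the same reads as the heights.

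The 10 highest sites by mean rank were all CpG-rich, and 5 of them lay within 1 kb of a coding start outside the basic GENCODE set. The highest had heights of 131 and 144 in replicates 1 and 2 and lay at chr16:4541896-4542045, 17.8 kb from the basic start of Tfap4, a basic helix-loop-helix factor. It overlapped a RefSeq mRNA start of Srl, which encodes sarcalumenin. The next were the sites near Trappc9 (128 and 145), Tex44 (131 and 143), Ptma (131 and 143) and Scd3, a fatty acid desaturase (131 and 142). The Scd3 site overlapped a RefSeq mRNA start of Pkd2l1, a channel gene. Sites near Grcc10 (125 and 146), Midn (128 and 142) and Acaca, which encodes acetyl-CoA carboxylase (127 and 142), lay 0, 244 and 166 bp from GENCODE starts of coding genes that the basic set leaves out. A site near Zfp395 (127 and 142), a zinc finger gene, lay between protein-coding genes, 14.8 kb from a basic start. None of the 10 held the CTCF core.

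The strongest distal sites lay nearer to coding starts, more often between protein-coding genes and less often in introns than the other distal shared sites. Introns of protein-coding genes held 1609 of the 4893 sites, 32.9% (exact 95% interval 31.6 to 34.2), against 42.7% (42.4 to 43.1) of the others. Exons held 6.21% (5.55 to 6.93), against 4.61% (4.45 to 4.77). Between protein-coding genes lay 60.9% (59.5 to 62.3), against 52.7% (52.3 to 53.0). The median distance to a basic coding start was 17200 bp, against 32960 bp. Over 100 kb from any such start lay 574 sites, 11.7% (10.8 to 12.7), against 23.6% (23.3 to 23.9). Intervals cover counting error only, and no test between sites was made, since all sites come from the same 2 libraries.

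The highest site in an exon was that of Grcc10, followed by sites near Mamstr (126 and 140) and Zfp503, a zinc finger repressor of the developing brain (129 and 139). In introns the highest lay in Midn and Acaca, followed by 4931414P19Rik (127 and 141). The 3 sites farthest from a coding start were nearest to Pik3c3 (chr18:28077876-28078045, 2194702 bp), Mat2b (chr11:39589136-39589285, 1103489 bp) and Tecrl (chr5:82346776-82346925, 1008270 bp). Their heights were 87 and 116, 82 and 102, and 87 and 107 in replicates 1 and 2.

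Other annotated starts lay within 1 kb of 1362 of the strongest sites, 27.8% (26.6 to 29.1), against 12.5% (12.2 to 12.7) of the other distal shared sites. Starts of noncoding GENCODE transcripts lay within 1 kb of 628 sites, 12.8% (11.9 to 13.8), against 5.77% (5.59 to 5.95). Within 100 bp the shares were 6.66% (5.98 to 7.40) and 1.87% (1.77 to 1.97). The nearest noncoding start belonged to a long noncoding RNA at 465 sites, a small RNA at 63, a pseudogene at 50 and a transcript GENCODE labels TEC at 50. Long noncoding RNAs thus gave 9.50% (8.70 to 10.4) of the strongest sites, against 3.67% (3.53 to 3.82) of the others, while pseudogenes gave 1.02% (0.759 to 1.35), against 0.787% (0.721 to 0.857), with overlapping intervals. Coding genes had a GENCODE start outside the basic set within 1 kb of 10.3% (9.44 to 11.2) of the strongest sites, against 5.01% (4.85 to 5.18), and a RefSeq mRNA start lay that close to 9.03% (8.24 to 9.87), against 3.49% (3.35 to 3.63).

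High sites at noncoding starts lay at Zmiz1os1, an antisense transcript at Zmiz1 (126 and 142 in replicates 1 and 2), at 1700028E10Rik (123 and 144), at Zswim6 (126 and 141) and at Gm27940, labelled misc_RNA (129 and 140). The Zswim6 site lay 72 bp from the start of a processed transcript in GENCODE M21 and of an mRNA in RefSeq, and the Zmiz1os1 site also lay 70 bp from a RefSeq mRNA start of Zmiz1. Annotation therefore decides whether such a site counts as distal: 4451 sites were left once those within 1 kb of a RefSeq mRNA start were taken out, and 3531 once all the other listed starts were taken out as well.

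**Figure D2:**
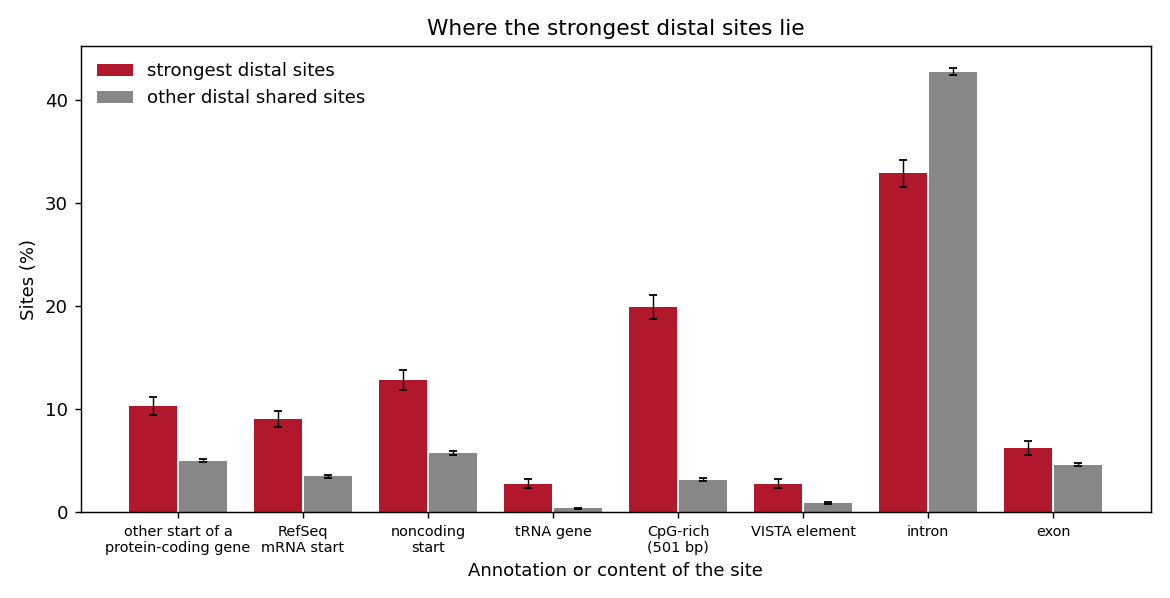
Share of sites (y axis, percent) with each annotation or content (x axis), for the 4893 strongest distal sites in red and the 66463 other distal shared sites in grey; bars may overlap in the sites they count, and error bars are exact 95% intervals. The red bars are higher at every kind of start and for CpG-rich sites (19.9% against 3.17%), and lower for introns (32.9% against 42.7%).

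Starts of 25 microRNA genes lay within 1 kb of 27 of the strongest sites, 0.552% (0.364 to 0.802), against 0.316% (0.275 to 0.362) of the other distal shared sites. MicroRNAs are short RNAs that pair with mRNAs through a seed near their 5′ end. The highest sites lay at Mir210 (120 and 141 in replicates 1 and 2), a microRNA induced by low oxygen, Mir9-3 (118 and 139), which is known for its role in neural progenitors, Mir92b (116 and 137) and Mir219a-1 (116 and 129). Further sites lay at Mir219a-2 (99 and 131), Mir124a-3, the neuronal microRNA (97 and 123), and Mirlet7i (90 and 119). The RefSeq table held mature sequences for 18 of the 25 genes. They are given for 5 because these microRNAs have known roles in neural or hypoxic cells, with the seed, bases 2 to 8, in capitals. Mir219a-1 and Mir219a-2 give the same mature miR-219a-5p.
miR-210-3p, chr7:141221407-141221428, - strand: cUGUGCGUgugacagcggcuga
miR-9-5p, chr7:79505279-79505301, + strand: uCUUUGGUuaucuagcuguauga
miR-92b-3p, chr3:89227126-89227147, - strand: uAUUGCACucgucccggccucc
miR-219a-5p, chr17:34025052-34025072, - strand: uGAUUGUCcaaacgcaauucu
let-7i-5p, chr10:122985698-122985719, - strand: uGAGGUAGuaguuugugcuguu

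Genes for tRNAs lay within 1 kb of 135 of the strongest sites, 2.76% (2.32 to 3.26), against 0.381% (0.335 to 0.430) of the other distal shared sites. Of the 403 tRNA genes in RefSeq, 85 were overlapped by one of the strongest sites, 21.1% (17.2 to 25.4), and 205 by any distal shared site, 50.9% (45.9 to 55.9). tRNAs for 20 different amino acids were among the 85 genes. Shares differed by kind, with 8 of 17 genes for tRNA-Thr, 9 of 25 for tRNA-Leu and 9 of 24 for tRNA-Arg, but 2 of 57 for tRNA-Cys. Any distal shared site overlapped 14, 16, 15 and 5 of these genes in the same order, so the low share of tRNA-Cys was not particular to the strongest sites. Site centres lay a median of 12 bp downstream of the tRNA start (quartiles -40 and 53), with 36 of 85 upstream of it. The central 31 bases occurred elsewhere in the genome at 22 of the 85 sites, against 47 of all 4893, and the part of reads shared between tRNA copies was not tested.

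The letters GGTTCGANNCC of the B box, an internal promoter element of tRNA genes, were found in the central 150 bp of 38 of the 85 sites. As 36 of the 85 centres lay upstream of the tRNA start, the B box of some genes may lie outside that window. The letters are shown for a site over a gene for tRNA-Tyr, given on the tRNA strand, with the B box in capitals. Its heights were 108 and 125 in replicates 1 and 2.
chr13:23432946-23433095, - strand, near Abt1: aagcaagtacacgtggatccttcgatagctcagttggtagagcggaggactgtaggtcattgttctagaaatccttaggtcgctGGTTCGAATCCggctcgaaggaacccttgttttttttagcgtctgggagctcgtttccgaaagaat

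The strongest distal sites were richer in G and C than the others. The GC content of the central 150 bp had a median of 57.3% (quartiles 53.3 and 63.3), against 51.3% (46.7 and 55.3) in the other distal shared sites and 64.0% in promoter sites. A wider window around the centre was called CpG-rich if its observed to expected CpG ratio was at least 0.6 and its GC content at least 55%. CpG-rich windows made up 19.9% (18.8 to 21.1) of the strongest sites, against 3.17% (3.04 to 3.31) of the others, and 59.2% of promoter sites. They were most frequent at the other coding starts (42.3%, 38.7 to 45.9, of 736 sites) and at noncoding starts (35.6%, 31.5 to 39.9, of 520), but also made up 13.1% (12 to 14.3) of the 3531 sites with no listed start, against 1.94% (1.83 to 2.05) of such sites among the others. Sites whose central 150 bp were mostly repeat-masked were rare, with 0.347% (0.203 to 0.556), against 4.91% (4.74 to 5.07). Central 31 bases found more than once in the genome occurred in 0.961% (0.707 to 1.28), against 1.43% (1.34 to 1.52). The site with most copies lay near H2-K1 (105 and 117 in replicates 1 and 2), whose central 31 bases occur 4936 times, and the part of reads from those copies in its height was not tested.

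The CTCF core was found in 1039 of the strongest sites, 21.2% (20.1 to 22.4), against 15.8% (15.5 to 16.1) of the other distal shared sites and 2.95% of promoter sites. In windows 1 kb to either side the share was 1.51% for the strongest sites and 1.18% for the others. The longer CTCF consensus was found in 12.4% (11.5 to 13.4), against 6.08% (5.90 to 6.27). The order depends on the height limits: with limits of 90 and 110 the core share was 12.7% (11.3 to 14.1), below the 16.2% of all distal shared sites, and with limits of 70 and 90 it was 26% (25.1 to 26.9). With the distal shared sites put in 10 groups of equal size by height, the share was 11.5% in group 1, the lowest, 9.95% in group 3, 28.4% in group 9 and 22.1% in group 10. CpG-rich sites, noncoding starts and tRNA genes showed another course, with their highest share in group 10: 18.2% of sites were CpG-rich, 12.1% lay at a noncoding start and 2.40% at a tRNA gene, against 7.44%, 7.57% and 0.855% in group 9.

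**Figure D3:**
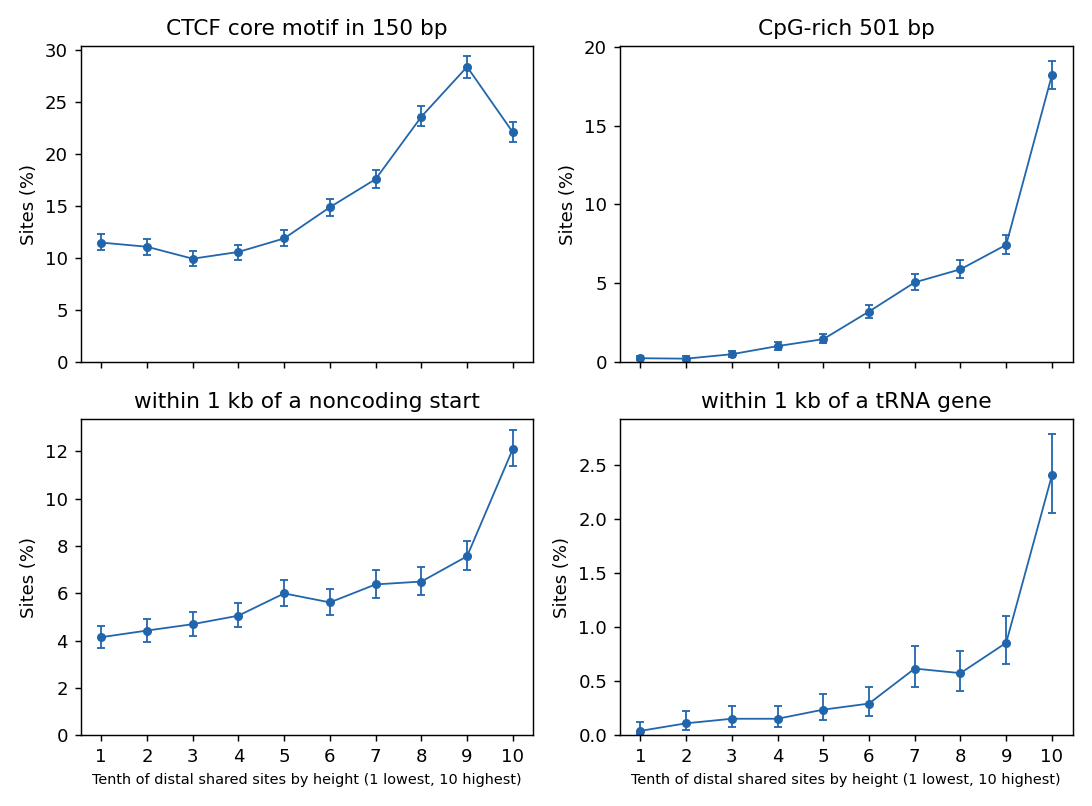
Share of distal shared sites (y axes, percent, with exact 95% intervals) that hold the CTCF core, are CpG-rich, or lie within 1 kb of a noncoding start or a tRNA gene, in 10 groups by mean height rank from the lowest (1) to the highest (10), of 7135 or 7136 sites each. The CTCF share is highest in group 9 (28.4%), the other 3 shares in group 10, which holds all 4893 strongest sites.

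Motif and start divided the strongest sites. The CTCF core was found in 25.2% (23.8 to 26.7) of the 3531 sites with no listed start, against 16.4% (16.1 to 16.7) of such sites among the others. At noncoding starts it was found in 13.3% (10.5 to 16.5), against 10.9% (9.83 to 12), at other coding starts in 10.5% (8.34 to 12.9), against 12.1% (11.1 to 13.0), and at tRNA genes in 1.89% (0.229 to 6.65), against 2.30% (0.752 to 5.29), with overlapping intervals in these 3 classes. At matched GC content the strongest sites held the core more often: 28.6% (24.6 to 32.8), against 18.4% (17.9 to 18.9), at 40 to 50% GC, 27.7% (26 to 29.6), against 14.7% (14.3 to 15.1), at 50 to 60%, and 12.6% (10.9 to 14.4), against 8.13% (7.45 to 8.85), at 60 to 70%. At 70 to 80% the intervals overlapped, with 7.50% (5.22 to 10.4), against 4.32% (3.07 to 5.88).

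The core mostly lay before the centre of the site on the strand of the motif. Read along the strand of the motif, its middle lay a median of 13 bp before the site centre in the strongest sites (quartiles -28 and 1) and 10 bp before it in the others (-22 and 1). It lay within 25 bp of the centre in 64.5% (61.5 to 67.4) of the strongest sites with the motif, against 75.8% (75 to 76.6) of the others. The motif was on the plus strand in 528 of the 1039 sites and on the minus strand in 511. Of 1019 pairs of neighbouring motif sites on a chromosome, 253 pointed towards each other, 249 away from each other and 517 the same way, with a median gap of 751370 bp.

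**Figure D4:**
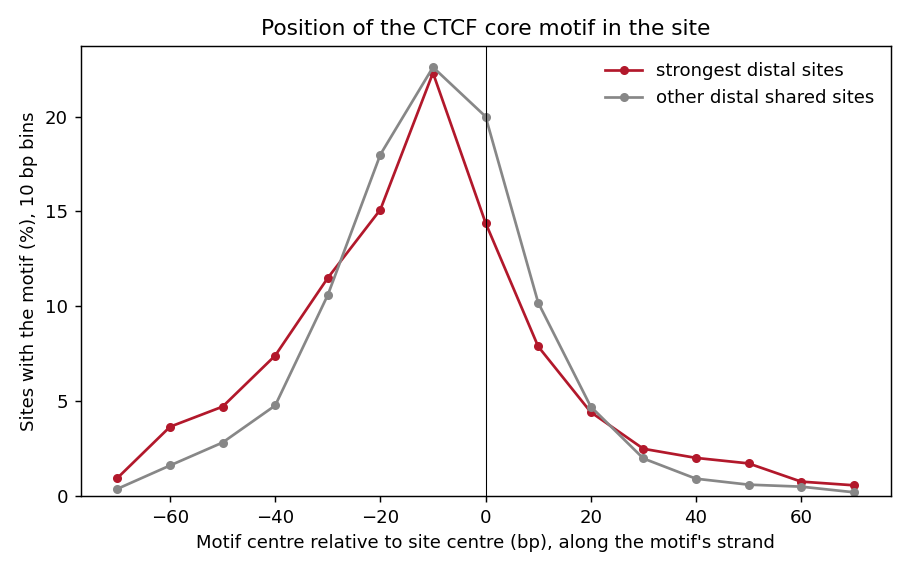
Position of the CTCF core relative to the site centre (x axis, bp, read along the strand of the motif) as the share of sites with the motif (y axis, percent in bins of 10 bp), for the strongest distal sites in red and the other distal shared sites in grey. Both curves are highest 10 bp before the centre (22.3% and 22.6%), and the red curve is wider.

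Among the other motifs, none of which was compared at matched GC content, those known from CpG-rich promoters were more frequent in the strongest sites. NRF1 was found in 2.17% (1.78 to 2.61), against 0.250% (0.213 to 0.291) of the other distal shared sites, 4.92% of promoter sites and 0.163% of the windows beside the strongest sites. The GC box (GGGGCGGGG), bound by Sp factors, was found in 5.17% (4.57 to 5.83), against 1.39% (1.30 to 1.48), the ETS motif (CCGGAAGT) in 1.31% (1.01 to 1.67), against 0.212% (0.179 to 0.250), and the CRE motif in 1.51% (1.19 to 1.89), against 0.349% (0.306 to 0.397). NFY (CCAATNAG) was found in 3.99% (3.45 to 4.57), against 1.90% (1.80 to 2.01). ZNF143 (ACTACANNTCCCA) was found in 0.695% (0.482 to 0.970), against 0.144% (0.117 to 0.176), and YY1 (AANATGGCGGC) in 0.143% (0.0575 to 0.295), against 0.0256% (0.0149 to 0.0409). RFX, a motif of factors of ciliated cells, was found in 1.19% (0.901 to 1.53), against 0.685% (0.623 to 0.750), and in none of the windows beside the strongest sites. The highest site with the ZNF143 motif lay 25 bp from a noncoding start near Ssh3, with heights of 130 and 134 in replicates 1 and 2, and is shown for its long match, in capitals.
chr19:4257682-4257740, - strand, near Ssh3: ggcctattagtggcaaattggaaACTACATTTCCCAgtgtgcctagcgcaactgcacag

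Several motifs of developmental factors were less frequent in the strongest sites, again without matching of GC content. The CAGATG E-box of proneural factors was found in 11.5% (10.6 to 12.4), against 16.7% (16.4 to 17.0), and the homeodomain motif TAATTA in 1.33% (1.03 to 1.69), against 3.04% (2.91 to 3.18). Lef/Tcf (ATCAAAG) was found in 1.66% (1.32 to 2.05), against 2.55% (2.43 to 2.67), TEAD (GGAATG) in 7.95% (7.21 to 8.74), against 9.53% (9.30 to 9.75), EBF (TCCCNNGGGA) in 0.715% (0.499 to 0.993), against 1.2% (1.11 to 1.28), and AP-1 in 2.17% (1.78 to 2.61), against 2.92% (2.79 to 3.05). The motif AGATAAG, bound by blood and endothelial factors, was found in 0.736% (0.516 to 1.02), against 1.2% (1.11 to 1.28). In the windows beside the strongest sites TAATTA was found in 3.41%, Lef/Tcf in 2.06% and AGATAAG in 1.65%, each above the central share. Near the central share were TEAD with 7.98%, AP-1 with 2.23% and CAGATG with 10.9% in these windows. EBF was below it with 0.378%. Intervals overlapped for MEF2 (CTATTTATA), a muscle and neuron factor, with 1 site of 4893 or 0.0204% (0.000517 to 0.114), against 0.0918% (0.0702 to 0.118). They also overlapped for the CAGCTG E-box (15.6% against 16.1%), Sox (ACAATGG, 3.27% against 3.40%), the POU octamer (ATGCAAAT, 1.45% against 1.41%), NFI (TGGCNNNNNGCCA, 1.35% against 1.13%) and Meis-Pbx (TGATTGAC, 0.634% against 0.581%). Zic (CAGCAGG) was found in 11.6% (10.7 to 12.6), against 10.5% (10.2 to 10.7), with intervals that meet at 10.7%. Motif matches do not show binding. The RE1 element of the repressor REST gave 0.327% (0.187 to 0.530), against 0.582% (0.526 to 0.643), for its left part TTCAGCACC and 0.429% (0.266 to 0.655), against 0.232% (0.197 to 0.271), for its right part GGACAGCGC. At least 1 of the searched motifs was found in 66.2% of the strongest sites, against 63.5% of the others.

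Within 100 kb, 4319 of the strongest sites were assigned to the nearest coding start, to 3082 of 21827 protein-coding genes, 14.1%. Of all distal shared sites so assigned, 7.84% were among the strongest. A pair or more lay at 789 genes and 5 or more at 43. The gene with most was 1700001O22Rik with 10 of its 31 distal shared sites, the highest with heights of 114 and 133 in replicates 1 and 2. Maml3, a coactivator of Notch signalling, had 8 of 32, of which 7 lay in its introns. Kdm6b, a histone H3 lysine demethylase, had 7 of 19, all within 5.22 kb of a start. Polg had 7 of 21, and the noncoding gene nearest to each of 6 of these was Mir9-3 or its host transcript Mir9-3hg. Cryba4 had 7 of 23, of which 2 overlapped a start of Miat, a long noncoding RNA of neural tissue. Trim27 had 7 of 19, and every one of the 7 lay within 371 bp of a tRNA gene. Copz2 had 7 of 13, and Ptma 6 of 22, Chd2 6 of 21 and Zfp503 6 of 21.

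Most gene lists held larger shares of such genes than the 14.1% of all genes. For Hox genes, housekeeping genes and the lists of other cell types below, however, the intervals of these shares held 14.1%. Genes differ in their number of distal shared sites, so the share of those sites is given beside each count. Of 21 neural progenitor genes 17 had at least 1 of the strongest sites, 81% (58.1 to 94.6), with 47 of their 322 distal shared sites, 14.6% (10.9 to 18.9), above the 7.84% of all genes. Sox2 and Sox1, SoxB1 factors of progenitors, had 6 of 55 and 5 of 39, and the receptor gene Notch1 had 5 of 18. Of 24 signalling target genes 18 had 1 or more, with 34 of 260 sites, 13.1% (9.23 to 17.8). Ptch1, the hedgehog receptor and target, and Id2, an inhibitor of helix-loop-helix factors, had 4 each, with highest sites of 121 and 143 and of 117 and 138 in replicates 1 and 2. Hindbrain segmentation genes gave 13 of 22 genes with 28 of 266 sites, 10.5% (7.11 to 14.9), an interval that holds 7.84%, led by the nuclear receptor gene Nr2f1 with 5 of 30, the ephrin receptor gene Ephb2 with 4 of 21 and Meis2 with 3 of 26.

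For the factors of hindbrain domains 18 of 40 genes had 1 or more, yet their share of sites, 35 of 584 or 5.99% (4.21 to 8.24), was not above that of all genes. Pax7 had 6 of 30, and Neurog2, a proneural factor, 3 of 17. Midbrain and isthmus genes gave 11 of 16 genes and 8.47% (4.82 to 13.6) of sites, with 2 each at Etv5, En2 and Spry2. Neuron genes gave 14 of 27 and 9.45% (5.79 to 14.4), with 3 at Gap43, forebrain genes 9 of 20 and 7.88% (4.26 to 13.1), with 3 at Dlx2, and glia genes 5 of 12 and 6.85% (2.26 to 15.3). The 39 Hox genes gave 7 genes with 8 of 61 sites, 13.1% (5.84 to 24.2), among them Hoxd3 with 2 of 3. Imprinted genes gave 11 of 21 genes and 11% (6.16 to 17.8), with 2 each at Gnas, Cdkn1c and Dlk1. REST target genes gave 7 of 20 and 13.3% (7.08 to 22.1), led by the potassium channel gene Kcnh2 with 4 of 12. The intervals of all lists in this paragraph held the 7.84% of all genes.

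Lists of other cell types gave between 0 and 4 genes each. They were 4 of 15 for mesenchyme and meninges, 3 of 12 for heart, 2 of 12 for neural crest, 2 of 14 for endothelium and pericytes, 2 of 11 for skeletal muscle, 2 of 11 for liver and 2 of 12 for surface epithelium. Erythroid and myeloid lists gave 1 of 11 each, at Klf1 and C1qb, and the germ cell list 0 of 10. Housekeeping genes gave 4 of 18, among them the elongation factor gene Eef1a1 with 2 sites, and the CTCF and cohesin list 1 of 13, at Ctcf itself. Their shares of sites ran between 0 of 16 for germ cells and 11.1% (4.59 to 21.6) for housekeeping genes, with intervals that held the 7.84% of all genes except that of mesenchyme and meninges (3.10%, 0.851 to 7.75).

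The sites of Sox2 are shown because it has most of the strongest sites among the listed progenitor genes and they differ in motif content. All 6 lay between protein-coding genes, from 2.38 kb to 13.9 kb from a start of Sox2. Their heights ran from 88 to 99 in replicate 1 and from 104 to 120 in replicate 2. Noncoding starts lay near some of them. The site 3.57 kb from Sox2 lay 798 bp from a start of Gm27611, and the site at 10.9 kb lay 792 bp from 1 of Sox2ot. The site at 13.9 kb overlapped a start of Gm42693. The first of the 2 highest held a Sox motif and a homeodomain motif and the other a CTCF core, all in capitals.
chr3:34653976-34654125, + strand, 3.57 kb from Sox2: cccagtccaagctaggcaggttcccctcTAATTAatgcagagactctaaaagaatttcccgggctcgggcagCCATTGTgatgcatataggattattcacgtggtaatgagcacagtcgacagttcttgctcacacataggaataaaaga
chr3:34640806-34640955, + strand, 9.44 kb from Sox2: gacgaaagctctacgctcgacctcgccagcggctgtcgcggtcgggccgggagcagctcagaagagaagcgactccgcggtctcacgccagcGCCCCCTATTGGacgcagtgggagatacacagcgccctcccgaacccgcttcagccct

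VISTA elements are DNA segments tested in transgenic mouse embryos for their power to drive a reporter gene, and RefSeq lists 620 mouse elements with the tissues that stained. They do not sample the genome evenly. How they were picked for testing, and whether open DNA of embryonic brain played a part, was not examined here. Of all 620 elements 116 held 1 or more of the strongest sites, 18.7% (15.7 to 22.0), and 400 any distal shared site, 64.5% (60.6 to 68.3). Of the 140 elements with reporter signal in the hindbrain 65 held 1 or more of the strongest sites, 46.4% (38.0 to 55), and 128 held any distal shared site, 91.4% (85.5 to 95.5). Elements with signal in other parts of the central nervous system but not in the hindbrain held one of the strongest sites in 27 of 146 cases, 18.5% (12.6 to 25.8), and any distal shared site in 79.5% (72.0 to 85.7). Elements with no central nervous system label held one in 24 of 334 cases, 7.19% (4.66 to 10.5), and any distal shared site in 46.7% (41.3 to 52.2). The shares of elements with any open distal site thus ran in the same order. By tissue, with elements counted under each of their labels, the share with one of the strongest sites was 52.2% (30.6 to 73.2) for the trigeminal ganglion, 48.3% (29.4 to 67.5) for dorsal root ganglia, 48.0% (37.8 to 58.3) for neural tube, 40.9% (33.2 to 48.9) for midbrain and 36.5% (29.2 to 44.3) for forebrain. The share was 28.6% (15.7 to 44.6) for eye and 21.9% (9.28 to 40.0) for somite. All these intervals overlapped that of hindbrain. For limb the share was 17.8% (12.4 to 24.3), for heart 7.55% (3.96 to 12.8) and for branchial arch 7.14% (2.92 to 14.2). All but 12 of the hindbrain elements held a distal shared site.

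**Figure D5:**
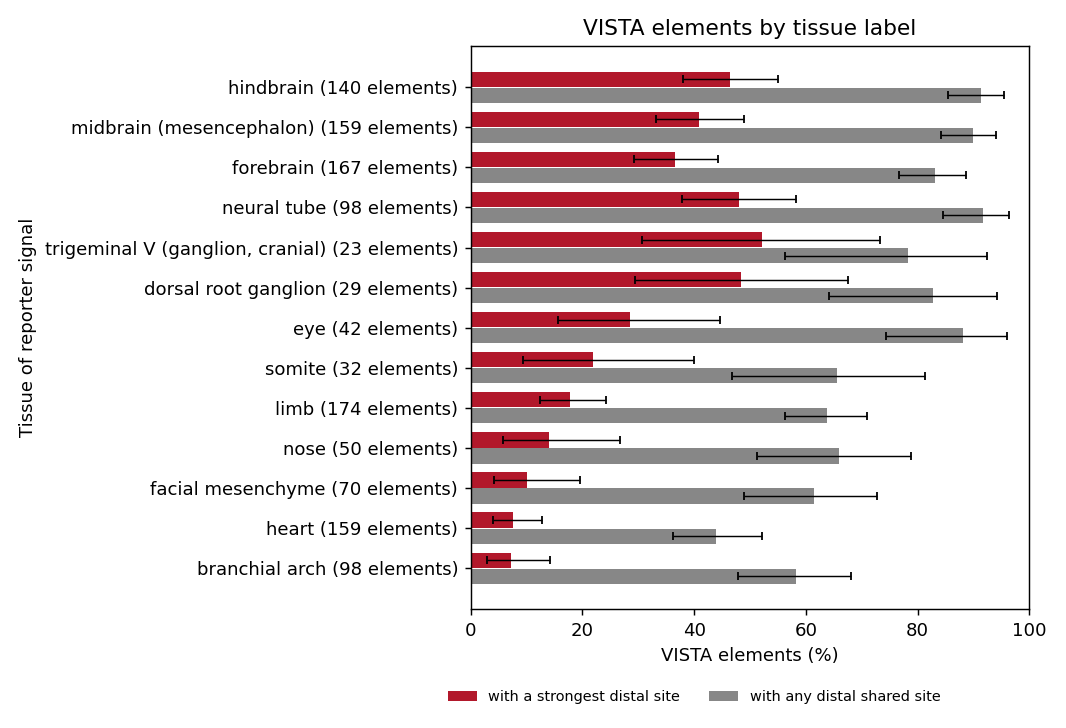
Share of VISTA elements (x axis, percent) with reporter signal in each tissue (y axis, number of elements in brackets) that hold one of the strongest distal sites (red) or any distal shared site (grey), with exact 95% intervals; an element counts under each of its tissues. Hindbrain elements reach 46.4% and 91.4%, heart elements 7.55% and 44.0%.

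The hindbrain elements held 77 of the strongest sites, and these differed in content from the 4757 outside all VISTA elements. The CTCF core was found in 1 of the 77, 1.30% (0.0329 to 7.02), against 21.8% (20.6 to 23), and 2 were CpG-rich, 2.60% (0.316 to 9.07), against 20.4% (19.3 to 21.6). In the 216 other distal shared sites of the hindbrain elements both shares were low as well, 3.70% (1.61 to 7.17) for the core and 3.24% (1.31 to 6.56) for CpG-rich sites, with overlapping intervals. VISTA elements of any label held 136 of the strongest sites. Yet 1035 of the 1039 strongest sites with the core and 970 of the 976 CpG-rich ones lay outside all elements. The low shares were thus not confined to elements with a hindbrain label. The CAGCTG E-box was found in 24.7% (15.6 to 35.8) of the 77, against 15.5% (14.4 to 16.5) outside all elements, and in 13.4% (9.18 to 18.7) of the 216, all with overlapping intervals. RFX was found in 6.49% (2.14 to 14.5), against 1.11% (0.836 to 1.45) of the strongest sites outside the elements and 0 of the 216 (0 to 1.69%). The highest of the 77 lay in element mm1446 near Zmiz1 (111 and 139 in replicates 1 and 2), in mm1504 in an intron of Boc, a hedgehog co-receptor gene (114 and 135), in mm1445 near Btg2, an antiproliferative gene of neural progenitors (109 and 137), and in mm1469 near Zfp36l1 (120 and 130). Element mm1446 drove the reporter in the hindbrain of 3 of 4 embryos, mm1504 in 4 of 5, mm1445 in 4 of 4 and mm1469 in 5 of 5. Each of these elements also drove it in neural tube, midbrain and forebrain, and mm1469 in the heart of 5 of 5 embryos as well. Other elements with strong sites lay near Msx3 (106 and 138), Irf2bpl (113 and 133), the tubulin gene Tuba1a (118 and 130) and Tob1 (111 and 132).

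The centres of 4 of these sites are shown because they lie in elements tested as enhancers. The tests used the whole elements, which extend beyond the 150 bp shown on both sides. Capitals mark matches to the searched motifs, of which only the Btg2 site held one, the CAGATG E-box.
chr14:25108916-25109065, + strand, mm1446 near Zmiz1: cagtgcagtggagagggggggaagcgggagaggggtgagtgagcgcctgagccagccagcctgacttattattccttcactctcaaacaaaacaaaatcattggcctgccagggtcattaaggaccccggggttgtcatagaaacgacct
chr16:44530996-44531145, + strand, mm1504 in Boc: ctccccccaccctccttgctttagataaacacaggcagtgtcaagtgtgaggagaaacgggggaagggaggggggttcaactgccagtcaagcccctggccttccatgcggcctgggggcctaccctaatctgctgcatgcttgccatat
chr1:134063256-134063405, + strand, mm1445 near Btg2: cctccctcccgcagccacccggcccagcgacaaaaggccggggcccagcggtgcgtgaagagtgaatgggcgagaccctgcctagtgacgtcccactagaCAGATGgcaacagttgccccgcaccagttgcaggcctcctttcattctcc
chr12:80062706-80062855, + strand, mm1469 near Zfp36l1: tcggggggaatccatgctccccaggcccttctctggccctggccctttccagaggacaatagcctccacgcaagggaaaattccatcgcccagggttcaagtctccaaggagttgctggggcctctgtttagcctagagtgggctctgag

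Some strong sites lay in elements that drove the reporter elsewhere. The highest was in mm260 near Fos, an immediate early gene, labelled for heart alone (125 and 136 in replicates 1 and 2), and another heart element, mm567, lay near Fosb (119 and 132). The share of heart elements with no central nervous system label that held one of the strongest sites was 5.15% (2.09 to 10.3), 7 of 136.

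Another of the strongest sites lay within 1 kb for 549 sites, 11.2% (10.3 to 12.1), and within 100 kb for 3178, 64.9% (63.6 to 66.3). The spacing of the other distal shared sites was not measured, so these shares have no background beside them. Chromosome 11 had the most, 442 sites or 3.62 per Mb and 8.95% of its distal shared sites. The X chromosome had 51, or 0.298 per Mb and 3.16%, and the other autosomes between 5.24% and 8.49%. Both libraries pool male and female embryos, and the part of X copy number in this was not tested.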

How the data were processed

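DNase-seq peaks and hotspots of 2 hindbrain libraries were used. The authors aligned reads to mm10 and called each library alone, per the text deposited beside the files; aligner, caller, filters, depth and scaling: not given in the sources used here. Deposited signal values are peak heights (whole numbers up to 150), the deposited hotspot values are a −log10 of a false discovery rate, at most 100, and the deposited hotspot score repeats it in steps of 10 and was not used. Peaks outside scaffolds and the mitochondrial chromosome were merged by 1 bp overlap. Starts came from GENCODE M21, and RefSeq GRCm38.p6 gave mRNA starts, tRNA genes, VISTA elements and sequence. A site's distance was taken from its edge, and its content from 150 bp around the mean centre of both libraries' highest peaks; 27 motifs were searched on both strands, with windows 1 kb to each side.

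The members, 23 gene lists (412 of 415 entries matched) and motifs were chosen with earlier results of these data known. VISTA elements, tRNA genes, RefSeq starts, CpG-rich windows, height groups and the microRNA, Sox2 and VISTA examples were added after the data were seen. Sites named by rule were the 10 highest by mean rank, the 5 highest at noncoding starts, 3 per place, the 3 farthest and the highest with a motif; genes were the 10 with most sites and up to 3 per list. Some items that meet these rules are not reported here. Shares carry exact Clopper-Pearson 95% intervals, for counting error only, and no p-value was computed, as the series has 1 group. Alternatives were other height limits, distances, starts, overlaps, the height limit of a single library and sites unique in the genome. Merging, distances and motif search were tested on simulated data. Python 3.11.15, numpy 2.4.6, pandas 2.3.3, scipy 1.17.1 and matplotlib 3.10.9 were used.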

Additional observations from a re-analysis of the deposited data

Results flagged for a closer look

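Peaks outside the analysed chromosomes passed the same height limits. On the mitochondrial chromosome 31 of 31 peaks of replicate 1 and 29 of 29 of replicate 2 did so, and on scaffolds 29 of 374 and 34 of 302. The study has no control sample to set them against, and they enter no comparison here.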

How the results depend on the processing

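The number of sites was 2110 with limits of 90 and 110, 9431 with limits of 70 and 90 and 3117 for the highest 10% of peaks of each library. The CTCF core share was 12.7%, 26% and 16% in the same order, the share at noncoding starts 17.2%, 10.4% and 15.0%, and the share in introns 29.8%, 35.2% and 30.1%. Dropping the height limit of either library gave 6875 to 8567 sites, with sites still merged from both libraries. CTCF shares were then 17.2% to 23.2%, noncoding shares 11% to 13.3% and intron shares 33.5% to 34.6%. Over 2.5 kb from a start the intron share was 31.1%, and over 5 kb it was 30.5% and the CTCF share 22.6%. With the starts of all transcripts of protein-coding genes the intron share was 29.4% and the CTCF share 22.4%. The longer CTCF consensus gave 12.4% and the central 50 bp 11.5%, and noncoding starts within 100 bp gave 6.66%. Chosen after seeing the data, leaving out sites near RefSeq mRNA starts gave a CTCF share of 22.6%, and near all listed starts 25.2%. In all, 23 values, 3 of them given above, stayed within the main 95% interval, or within 1.5-fold for the number of sites. The cause was not tested. No paired analysis was possible because the series has 1 group. With read depth and scaling unknown, heights cannot be compared between libraries except by rank. Motif matches and nearest genes show neither binding nor a target.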
